A study of Mus musculus with 30 samples.

Results

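Gene expression in subcutaneous B16F10 melanomas was compared between ARE-del heterozygous (HET) and wild type (WT) mice that had all received an agonist antibody against CD40. The 4 HET anti-CD40 libraries and the 3 WT anti-CD40 libraries were taken by their column names, 7 of the 30 tumor libraries in the series, and all genes of the deposited table were considered. B16F10 is a transplanted mouse melanoma line, and the hosts were C57BL/6 females whose age the labels do not give. Tumors grew for 7 days before the antibodies were started, and mice then received 0.25 mg of anti-CD40 2 times a week. The genotype label is ARE-del +/- for HET tumors and ARE-del +/+ for tumors titled WT, which are taken as wild type. The other groups of the series received control IgG, anti-PD1 or both antibodies (the combination) in each genotype. The allele is a property of the host, because the injected cells do not come from these mice. A tumor sample therefore mixes melanoma cells without the allele and host cells with it. The labels do not state whether each replicate is its own animal, and the p-values therefore reflect the spread among samples, which may be in part technical.

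Ifng encodes interferon-gamma (IFN-γ), and its mRNA normally carries an AU-rich element after the coding region that the ARE-del allele has lost. Such elements recruit proteins that shorten the life of an mRNA, and the allele leaves the protein sequence intact. IFN-γ is made mainly by T cells and natural killer (NK) cells, and its receptor signals through Janus kinases. That signal switches on Irf1, guanylate-binding proteins, immunity-related GTPases, the chemokines that draw T cells into tissue, and the genes of antigen presentation. CD40 is a receptor on dendritic cells, macrophages and B cells, and an agonist antibody stands in for the signal that helper T cells give them.

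Under anti-CD40, genes of the IFN-γ response stood higher in HET tumors than in WT tumors as a group, and no single gene passed the test across all genes. Members came from 7 lists: interferon regulatory factors, guanylate-binding proteins, immunity-related GTPases, T cell chemokines, MHC class I presentation, immunoproteasome and MHC class II presentation. Of 72 members in the table, 65 passed the filter of a log2 CPM above 0 in at least 3 of the 30 libraries. The 4 HET anti-CD40 libraries can meet that filter by themselves. Of these 65 genes, 62 stood higher in HET tumors and the median log2 difference was 1.65. The median over all 15002 genes tested was -0.02, and 6720 of them (44.8%) stood higher in HET tumors. Of the 65 genes, 54 had an unadjusted p under 0.05 with a higher value in HET tumors, which is 83.1% of them. The background for that count was 476 of 15002 genes, or 3.17%. The shares of 44.8% and 3.17% are also the background for list counts below of genes higher in HET anti-CD40 tumors. None of the 65 had an unadjusted p under 0.05 in the other direction. Without the filter 68 of the 72 genes stood higher. At the same unadjusted p, 56 of the 72 (77.8%) were higher, beside 3.46% of all genes. These limma fits take the spread from all 30 libraries. In a limma fit of the 7 anti-CD40 libraries alone, 47 of the 65 (72.3%) passed as higher, beside 2.85% of all genes, and 1 passed as lower. At a Benjamini-Hochberg adjusted p under 0.05 in limma, 0 of 15002 genes were called (0.0%), and the smallest adjusted p was 0.452. At an unadjusted p under 0.05 the count was 575 genes (3.83%) in limma, 476 higher in HET tumors and 99 lower (0.66%). The same limma test on voom-weighted whole reads passed 605 genes before adjustment at 0.05 and called 0 genes after it. In every sentence below, a log2 difference is HET minus WT on the deposited log2 CPM scale (read counts scaled to library size, with a small prior count), and ± gives its standard error from limma.

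**Figure D1:**
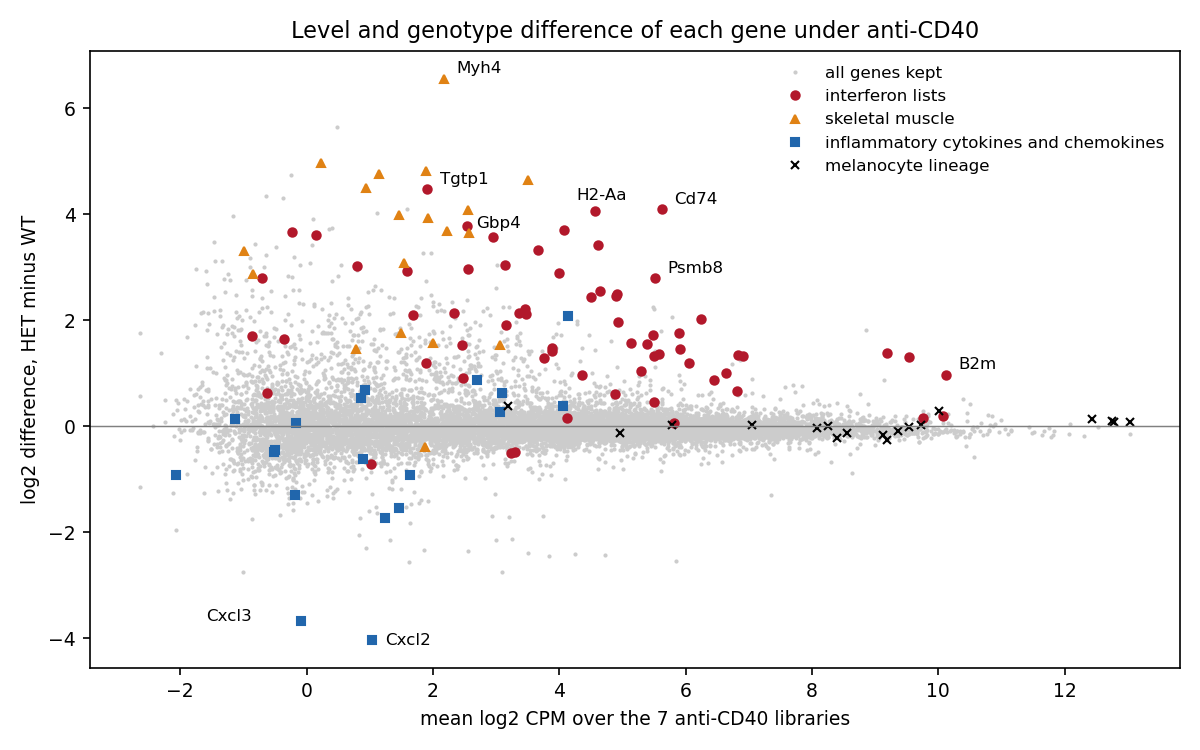
Each point is one of the 15002 genes tested, with the mean log2 CPM over the 7 anti-CD40 libraries on the horizontal axis and the log2 difference, HET minus WT, on the vertical axis. Members of the 7 interferon lists (red) lie mostly above 0 with a median of 1.65, skeletal muscle genes (orange) have a median of 3.69, Cxcl2 and Cxcl3 lie lowest of all genes and among the inflammatory cytokines and chemokines (blue), and melanocyte genes (black crosses) lie near 0.

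The libraries held 25.9 to 31.2 M reads in HET tumors and 21.9 to 25.1 M reads in WT tumors, within the 17.6 to 36.0 M of the whole series. The tumor label held in every library: the mean log2 CPM of 18 melanocyte lineage genes was 9.02 ± 0.27 in HET tumors and 9.01 ± 0.25 in WT tumors (SD, n = 4 and 3). Mitochondrially encoded genes took 0.722% to 2.35% of reads in HET tumors and 0.732% to 1.70% in WT tumors. Neighbouring tissue varied much more between tumors. The list score of 20 keratinocyte genes (the mean log2 CPM of the members kept) was -1.63, -2.43, 4.35 and 4.51 in HET replicates 1 to 4, against -1.94, 5.65 and 1.41 in WT replicates 1 to 3. The score of 19 skeletal muscle genes was 3.86, 0.95, 2.82 and 4.44 in HET tumors, against -0.87, -1.40 and 1.09 in WT tumors. Keratinocyte genes were high in some tumors of both genotypes, whereas 3 HET tumors lay above every WT tumor for muscle. The library names carry an L number that the labels do not explain. It was L7 for HET replicates 1 to 3, L8 for HET replicate 4 and L6 for all WT anti-CD40 libraries, so L number and genotype cannot be told apart within these 7 libraries.

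IFN-γ mRNA was scarce in every tumor. Ifng (chr10:118441046-118445892, mm10) had 0, 5, 31 and 4 reads in HET replicates 1 to 4, against 0, 1 and 0 reads in WT replicates 1 to 3. The groups overlap, since HET replicate 1 had no read, and 31 of the 40 HET reads came from HET replicate 3. Summed over each group and scaled by library reads, the level was 25.7-fold higher in HET tumors (exact 95% interval 4.36 to 1041, covering counting error only). Without HET replicate 3 the ratio was 7.58 (interval 1.05 to 332). An exact two-sided permutation test on the log2 values gave p = 0.229 for 4 against 3 libraries, where 35 arrangements allow no p below 0.057. Because the allele lacks only a short element, counts for the gene as a whole are no check of genotype. Across the series Ifng averaged 0.363 ± 0.524 CPM in HET anti-CD40 tumors and 0.168 ± 0.141 CPM in HET combination tumors (SD, n = 4 each), against 0.0160 ± 0.0277 and 0.0234 ± 0.0406 CPM in the WT tumors of the same treatments (n = 3 each). Under IgG it had 1 read over 4 HET tumors and 0 reads over 5 WT tumors. Under anti-PD1 the order was the other way, with 0 reads over 3 HET tumors and 9 reads over 4 WT tumors.

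The receptor chains of IFN-γ differed little. Of 12 genes found for IFN-γ reception and signalling, 11 passed the filter. Of these 11, 9 stood higher in HET tumors with a median log2 difference of 0.05. Ifngr1, the ligand-binding receptor chain, averaged 26.2 ± 3.21 CPM in HET tumors and 24.5 ± 6.26 CPM in WT tumors (SD, n = 4 and 3). Ifngr2, the second chain, averaged 67.6 ± 5.89 CPM in HET tumors and 67.4 ± 7.79 CPM in WT tumors, with a log2 difference of 0.01. Socs1, an inhibitor of the Janus kinases that IFN-γ itself induces, differed by 1.04 ± 0.50 (unadjusted p = 0.0466).

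Among the interferon regulatory factors, Irf1 and Irf8 separated the genotypes. Irf1, the transcription factor through which much of the IFN-γ response runs, stood at 52.1, 40.6, 161 and 60.0 CPM in HET tumors, against 20.9, 33.5 and 27.0 CPM in WT tumors. Every HET tumor exceeded every WT tumor. The log2 difference was 1.33 ± 0.44 (limma, unadjusted p = 0.00544, adjusted p = 0.599), and the exact permutation p was 0.057, the smallest this design allows (0.514 adjusted over 9 core genes). Irf8, a factor of macrophages and dendritic cells that IFN-γ also induces, stood at 11.9, 11.99, 67.0 and 19.4 CPM in HET tumors, against 2.997, 8.43 and 4.18 CPM in WT tumors. These groups did not overlap either, with a log2 difference of 2.12 ± 0.65 (limma, adjusted p = 0.521). Irf5 differed by 1.53 ± 0.65 and Irf7 by 0.97 ± 0.45, while Irf9, a factor of the type I response, differed by 0.46 ± 0.25 and Irf3 by 0.06 ± 0.25. Irf4, a factor of lymphocytes, stood lower in HET tumors at -0.49 ± 0.50. Of the 9 measured members 7 stood higher in HET tumors and 4 had an unadjusted p under 0.05, and the median of 0.46 was the lowest of the 7 lists. Non-overlap with every HET library higher was seen for 2.36% of all genes and with every HET library lower for 1.54%.

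The GTPases that IFN-γ induces against intracellular pathogens included Tgtp1, the gene with the widest difference among the 65 interferon genes. All 9 immunity-related GTPases and all 8 guanylate-binding proteins that passed the filter stood higher in HET tumors, each with an unadjusted p under 0.05, and the median log2 differences were 2.81 and 2.79. Tgtp1 (chr11:48985327-48994172) stood at 11.1, 8.29, 84.5 and 5.06 CPM in HET replicates 1 to 4, against 0.416, 0.814 and 0.508 CPM in WT replicates 1 to 3. The lowest HET tumor was well above the highest WT tumor. The log2 difference was 4.47 ± 1.24 (limma, unadjusted p = 0.0013, adjusted p = 0.498), and it was 3.62 without HET replicate 3. Igtp stood at 38.4, 38.3, 247 and 44.6 CPM in HET tumors, against 5.58, 13.2 and 18.5 CPM in WT tumors. The groups did not overlap, and the log2 difference was 2.51 ± 0.69 (limma, adjusted p = 0.483). The regulators Irgm1 and Irgm2 differed by 1.35 ± 0.49 and 1.58 ± 0.45, and for both the highest WT tumor reached the HET range. Iigp1 differed by 3.33 ± 0.97, Tgtp2 by 2.90 ± 0.95, Gm12250 by 2.94 ± 1.05, F830016B08Rik by 2.81 ± 0.89 and Ifi47 by 1.97 ± 0.78, all without overlap. Summed over the 9 GTPases, 338, 317, 1388 and 270.5 CPM were found in HET tumors, against 86.8, 91.9 and 235 CPM in WT tumors.

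Gbp4 (chr5:105115767-105139586) led the guanylate-binding proteins, which attack pathogen-containing vacuoles. It stood at 13.3, 13.8, 76.9 and 6.97 CPM in HET tumors, against 0.874, 1.72 and 1.17 CPM in WT tumors. All HET tumors were higher, with a log2 difference of 3.79 ± 1.11 (limma, unadjusted p = 0.00204, adjusted p = 0.511). Gbp2 stood at 37.8, 30.3, 188 and 38.1 CPM in HET tumors, against 4.58, 13.9 and 11.5 CPM in WT tumors, again without overlap and with a log2 difference of 2.56 ± 0.84. Gbp8 differed by 3.67 ± 0.96, Gbp6 by 3.04 ± 0.93, Gbp5 by 3.02 ± 0.91 and Gbp9 by 2.10 ± 0.71. Gbp7 and Gbp3 differed least, by 1.42 ± 0.62 and 1.47 ± 0.55, and their groups overlapped. How reads shared by near-identical members of these families were assigned is not given in the sources used here. The annotated spans of Igtp and Irgm2, and those of Gbp4 and Gbp8, overlap, so the split between such neighbours is uncertain.

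Several of these GTPase genes share a compact promoter pattern. The GAS element is the promoter element through which IFN-γ signals, and interferon regulatory factors bind the ISRE. The windows below are the promoter stretches, from RefSeq on GRCm38.p6, of 4 GTPase genes whose values are given above, shown because both motifs lie side by side in each. The capitals mark the GAS motif TTCNNNGAA and then the ISRE motif (GAAA, any 2 bases, GAAA), with 2 bases between them. They stand at chr11:58199499-58199543 on the plus strand for Igtp, chr11:58214890-58214934 on the plus strand for Irgm2, chr11:48992302-48992346 on the minus strand for Tgtp1 and chr11:49064261-49064305 on the minus strand for Tgtp2.
Igtp: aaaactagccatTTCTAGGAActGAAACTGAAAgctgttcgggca
Irgm2: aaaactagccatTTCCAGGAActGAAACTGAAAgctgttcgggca
Tgtp1: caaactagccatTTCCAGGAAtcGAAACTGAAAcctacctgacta
Tgtp2: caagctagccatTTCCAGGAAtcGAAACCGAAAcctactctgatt
The GAS motif begins 45, 75, 88 and 81 bases before the annotated start of Igtp, Irgm2, Tgtp1 and Tgtp2. Motifs were searched on both strands from 250 bases before to 50 bases after each start. Both motifs within 10 bases of each other were found in 5 of the 7 GTPase genes with a promoter entry (71.4%) and in 13 of 10314 tested genes with an entry (0.126%). For the 7 interferon lists, 48 of 65 genes had an entry, of which 12 (25.0%) held the GAS motif and 18 (37.5%) the ISRE motif, against 8.38% and 3.76% of all tested genes with an entry. None of 13 MHC class I genes with an entry held the GAS motif and 4 (30.8%) held the ISRE motif. A match describes letters in this window and is not evidence of binding.

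**Figure D2:**
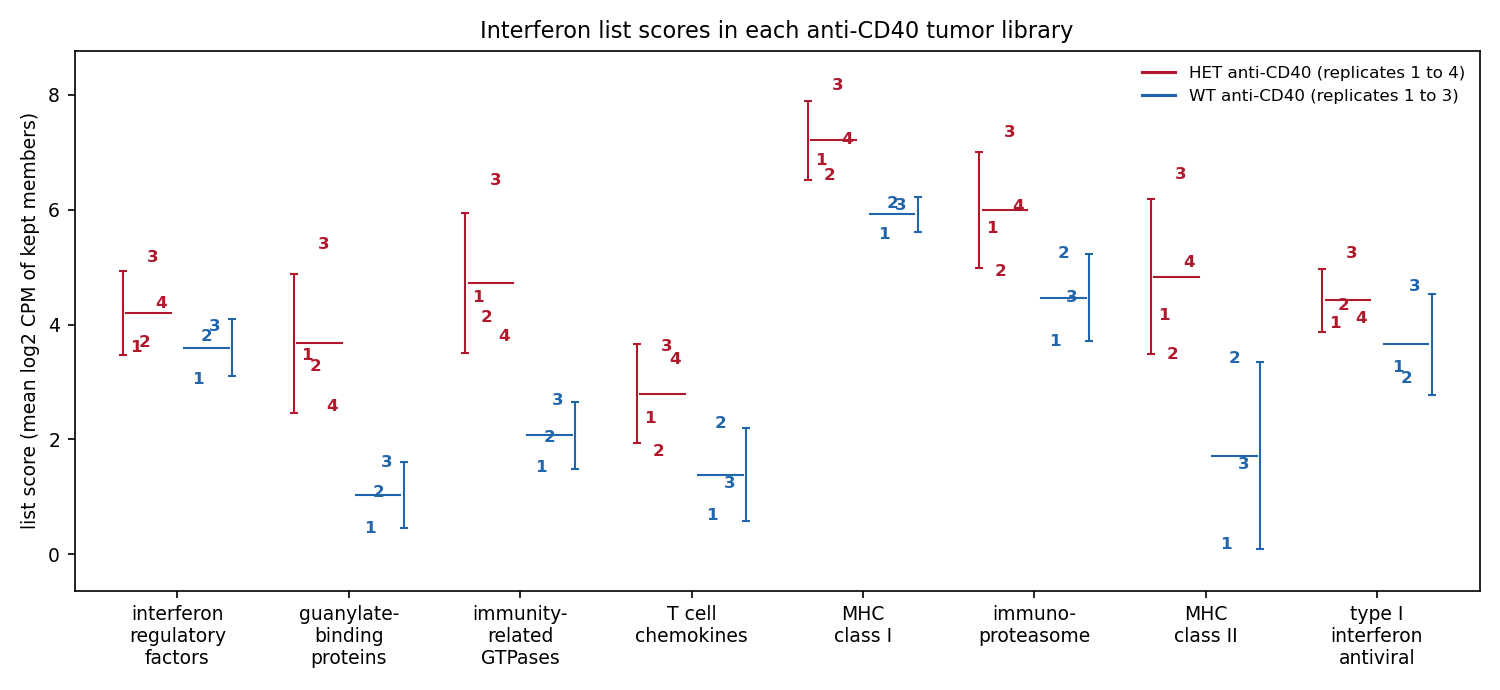
List scores, the mean log2 CPM of the kept members, are plotted for each library with its replicate number, HET in red left of WT in blue, with the group mean as a horizontal line and the SD as a bar. HET replicate 3 is highest and WT replicate 1 lowest in all 7 IFN-γ lists, and only the type I list at the right has another lowest and a high WT replicate 3.

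One HET tumor was highest throughout. In all 7 interferon lists the highest score belonged to HET replicate 3 and the lowest to WT replicate 1, and 52 of the 65 genes were highest in HET replicate 3. In 4 of the 7 lists every HET score exceeded every WT score. The guanylate-binding protein score was 3.45, 3.27, 5.39 and 2.58 in HET tumors, against 0.45, 1.08 and 1.59 in WT tumors. Without HET replicate 3, 41 of the 65 genes had an unadjusted p under 0.05 with higher values in HET tumors, beside 1.67% of all genes, and the median log2 difference was 1.26. Without WT replicate 1 the count was also 41, beside 1.93% of all genes, and the median 1.28. The count changed more under adjustments for L number or muscle. With L number as a covariate, 60 of 65 genes stood higher and the median was 1.15, while 2 of 65 (3.08%) had an unadjusted p under 0.05 with higher values in HET tumors, beside 0.54% of all genes. Only the HET IgG group joins L6 to L7 and L8, through HET IgG replicate 1 in L6. Here and below, differences adjusted for L number therefore rest on that 1 library. With the muscle score as a covariate, 13 of 65 did, beside 1.22% of all genes, and the median was 0.93. Without HET replicates 3 and 4 and WT replicate 2, the libraries with the highest keratinocyte scores, 26 of 65 did, beside 1.33% of all genes. The part of muscle tissue or of L number in the interferon difference was not tested.

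**Figure D3:**
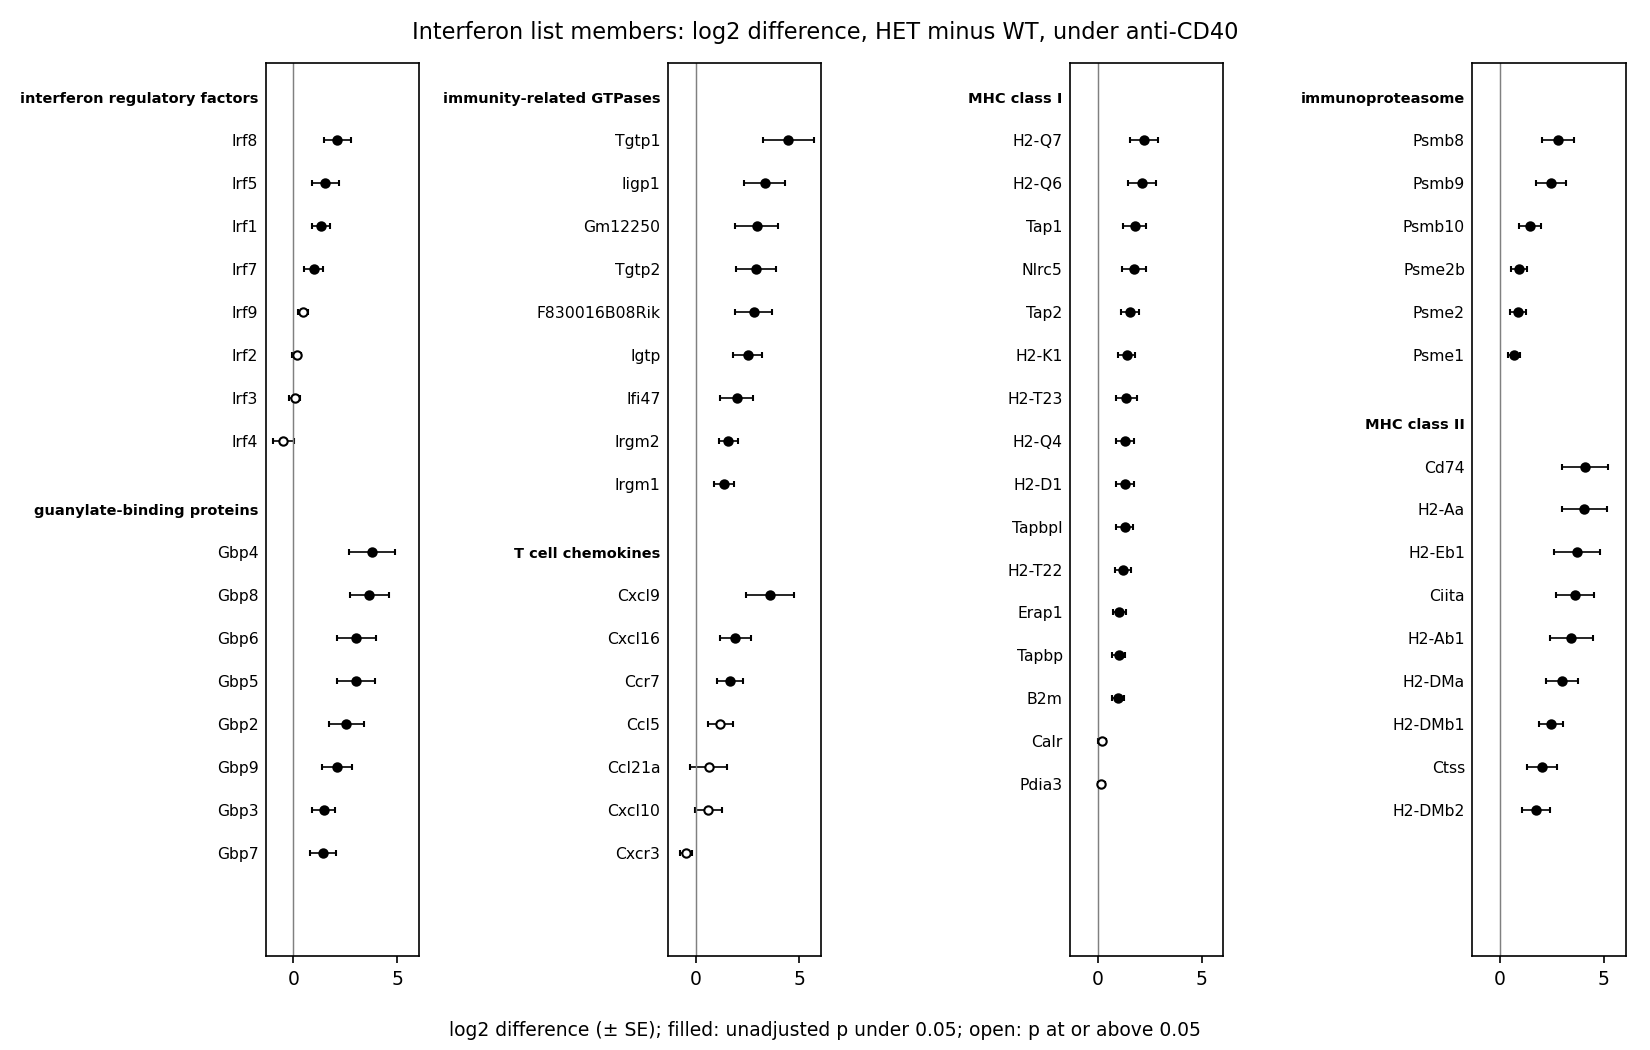
The figure shows 63 of the 65 kept members of the 7 interferon lists, each by its log2 difference, HET minus WT, under anti-CD40, with its standard error from limma. Filled points have an unadjusted p under 0.05 (53 genes), and of those drawn Irf4 and Cxcr3 lie below 0.

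Chemokines of the IFN-γ response were uneven. Cxcl9, a ligand of the chemokine receptor Cxcr3 whose expression depends on IFN-γ, stood at 28.1, 9.06, 77.4 and 12.8 CPM in HET replicates 1 to 4. In WT replicates 1 to 3 Cxcl9 stood at 1.21, 3.93 and 1.21 CPM. All HET tumors lay above all WT tumors, with a log2 difference of 3.58 ± 1.17 (limma, unadjusted p = 0.00487, adjusted p = 0.59). Cxcl10, a second Cxcr3 ligand that type I interferon also induces, stood at 33.4, 15.8, 53.8 and 55.5 CPM in HET tumors, against 14.3, 37.0 and 23.04 CPM in WT tumors. Its groups overlapped and the log2 difference was 0.62 ± 0.67, which turned to -0.47 with the muscle score as a covariate. Cxcr3 itself stood lower in HET tumors, at 9.55, 6.75, 8.75 and 9.04 CPM, against 11.4, 11.1 and 13.2 CPM in WT tumors, and its difference of -0.48 ± 0.29 had an unadjusted p of 0.11. The chemokine receptor Ccr7 differed by 1.65 ± 0.64 without overlap, Cxcl16 by 1.91 ± 0.75 and Ccl5 by 1.19 ± 0.60 with overlap. Of 12 members found, 8 passed the filter. Of these 8, 7 stood higher in HET tumors and 4 had an unadjusted p under 0.05. Before the filter 10 of the 12 stood higher.

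All 16 genes of MHC class I presentation stood higher in HET tumors, 14 of them with an unadjusted p under 0.05 and 13 without overlap. H2-K1, a class I heavy chain, stood at 520 and 508 CPM in HET replicates 1 and 2 and at 2016 and 1147 CPM in HET replicates 3 and 4. In WT replicates 1 to 3 it stood at 264, 412 and 351 CPM. The groups did not overlap, with a log2 difference of 1.39 ± 0.42 (limma, unadjusted p = 0.00251, adjusted p = 0.521). B2m, the light chain shared by class I molecules, stood at 1194, 1150, 2463 and 1426 CPM in HET tumors, against 596, 689 and 1042 CPM in WT tumors. It too separated the groups, by 0.98 ± 0.28. The peptide transporter subunits Tap1 and Tap2 differed by 1.77 ± 0.55 and 1.55 ± 0.42, and Nlrc5, the class I transactivator, by 1.73 ± 0.59. H2-D1 differed by 1.30 ± 0.42 and the nonclassical H2-Q7 by 2.21 ± 0.67. The general chaperones Calr and Pdia3, which serve all secreted proteins, differed by 0.19 ± 0.19 and 0.16 ± 0.16. Heavy chains of this family are near-identical, so how their reads divide between members is uncertain.

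The immunoproteasome replaces the catalytic subunits of the proteasome with forms that cut peptides for class I molecules. All 6 of its genes stood higher in HET tumors, each with an unadjusted p under 0.05, and 1 of them without overlap. Psmb8, that gene, stood at 77.2, 33.3, 397 and 117 CPM in HET tumors, against 6.70, 30.7 and 16.2 CPM in WT tumors, with a log2 difference of 2.80 ± 0.76 (limma, adjusted p = 0.483). Psmb9, encoded beside it, stood at 43.4, 20.2, 235 and 69.5 CPM in HET tumors, against 4.95, 22.3 and 12.5 CPM in WT tumors. There WT replicate 2 exceeded HET replicate 2, and the difference was 2.46 ± 0.72. Psmb10 differed by 1.45 ± 0.54, and the proteasome activator subunits Psme1 and Psme2 by 0.67 ± 0.29 and 0.87 ± 0.38.

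MHC class II genes had the highest median among the 7 lists, 3.43, and the widest spread between tumors. All 9 members kept stood higher in HET tumors with an unadjusted p under 0.05, and 4 did not overlap. H2-Aa, an alpha chain, stood at 46.7, 22.3, 381 and 100 CPM in HET tumors, against 1.17, 21.9 and 3.83 CPM in WT tumors. HET replicate 2 was barely above WT replicate 2, and the log2 difference was 4.07 ± 1.08 (limma, unadjusted p = 0.000829, adjusted p = 0.483). Cd74, the invariant chain, stood at 92.8, 45.7, 787 and 231 CPM in HET tumors, against 2.12, 54.6 and 7.65 CPM in WT tumors. Here WT replicate 2 exceeded HET replicate 2, and the difference was 4.09 ± 1.11. Ciita, the class II transactivator that IFN-γ induces, stood at 2.95, 1.58, 11.4 and 1.81 CPM in HET tumors, against 0.0416, 0.575 and 0.156 CPM in WT tumors. It separated the groups by 3.60 ± 0.93. H2-DMb1, a subunit of the peptide editor, stood at 28.0, 32.4, 114 and 47.3 CPM in HET tumors, against 4.62, 12.2 and 11.1 CPM in WT tumors. No HET tumor lay in the WT range, and its difference of 2.45 ± 0.59 had the smallest unadjusted p of the 65 genes in limma, 0.000294 (adjusted p = 0.452). H2-Ab1 and H2-Eb1 differed by 3.43 ± 1.03 and 3.71 ± 1.13, H2-DMa by 2.97 ± 0.76 and the protease Ctss by 2.03 ± 0.73. Melanoma cells can carry class II genes under IFN-γ, as dendritic cells, macrophages and B cells do without it, and the libraries cannot tell more such cells apart from more RNA per cell.

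Antiviral genes of the type I interferon response differed less. All 28 measured members stood higher in HET tumors, with a median log2 difference of 0.63, and 6 (21.4%) had an unadjusted p under 0.05. The list score was 4.03, 4.33, 5.23 and 4.11 in HET tumors, against 3.25, 3.06 and 4.67 in WT tumors, so that WT replicate 3 lay above 3 of the 4 HET tumors. The most abundant members were Bst2, a tether of budding viruses, Eif2ak2, the kinase that halts translation, and Rsad2, which makes a chain-terminating nucleotide. They differed by 0.77 ± 0.37, 0.19 ± 0.31 and 0.30 ± 0.35. Chosen after their values were seen, Isg15 and Zbp1 mark the range of the list. Isg15, a ubiquitin-like modifier, stood at 16.7, 23.9, 59.6 and 32.6 CPM in HET tumors, against 12.9, 17.0 and 47.3 CPM in WT tumors. The groups overlapped at a difference of 0.44 ± 0.38. Zbp1, a sensor of nucleic acids, stood at 13.7, 9.31, 97.1 and 12.4 CPM in HET tumors, against 1.12, 3.31 and 3.36 CPM in WT tumors, a difference of 3.05 ± 0.86 without overlap. The list median was 0.06 with L number as a covariate and 0.07 without the libraries of highest keratinocyte score.

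Markers of macrophages and dendritic cells mostly stood higher in HET tumors. Of 20 macrophage and monocyte genes, 17 stood higher, beside 44.8% of all genes, with a median log2 difference of 1.27. At an unadjusted p under 0.05, 9 (45.0%) were higher, beside 3.17% of all genes. Their score was 3.67, 3.50, 4.83 and 4.44 in HET tumors, against 1.88, 4.12 and 2.86 in WT tumors, which overlap at WT replicate 2. The most abundant members, Apoe, Lyz2 and Cd68, differed by 0.26 ± 0.28, 1.25 ± 0.70 and 0.88 ± 0.43. Chosen after their values were seen, the complement gene C1qc differed by 2.26 ± 0.74 and Csf1r, the growth factor receptor of macrophages, by 1.69 ± 0.69. Of the 20 genes, 2 stood higher without overlap, and the lowest of the 3 that stood lower differed by -0.56. Among dendritic cell genes 10 of 11 kept stood higher. Itgax, the integrin CD11c and also chosen afterwards, stood at 6.67, 6.38, 10.8 and 10.5 CPM in HET tumors, against 0.916, 2.49 and 2.30 CPM in WT tumors. All HET tumors were higher, by 2.20 ± 0.68. Fscn1, an actin bundler of mature dendritic cells that tumor cells also express, was the exception at 236, 216, 199 and 203 CPM in HET tumors, against 280, 327 and 265 CPM in WT tumors, a difference of -0.44 ± 0.16.

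T, NK and B cell genes were near the limit of detection. Of 22 T cell genes measured, 8 passed the filter, and of 16 cytotoxic and NK genes 4 did. Such genes pass where some group holds them, so their counts are given without weight: 21 of the 22 and all 16 stood higher in HET tumors before the filter. Cd8a, the coreceptor of cytotoxic T cells, stood at 0.644, 0.513, 4.19 and 0.541 CPM in HET tumors, against 0.0416, 0.862 and 0.312 CPM in WT tumors. HET replicate 3 stood alone and the other HET tumors lay below WT replicate 2. The difference was 1.54 (exact permutation p = 0.286), and it was 0.86 without HET replicate 3. The most abundant T cell members, Thy1, Tcf7 and Lck, differed by 0.24 ± 0.59, -0.08 ± 0.30 and 0.18 ± 0.37, and none of these is restricted to T cells. Among cytotoxic genes Il2rb, a receptor chain for interleukins 2 and 15, differed by 1.92 ± 0.73, Nkg7, a granule protein, by 2.20 ± 0.84 and Klrk1, an activating receptor, by 1.81 ± 0.87. For all 4 cytotoxic genes kept the groups overlapped, and HET replicate 3 held 778 of the 1180 HET reads of the 16 genes. The cytotoxic score was -1.27, -1.35, 1.93 and -0.06 in HET tumors, against -3.00, -0.78 and -2.54 in WT tumors. Of 8 B cell and plasma cell genes measured, 6 passed the filter. Of these, 5 stood higher in HET tumors, 3 had an unadjusted p under 0.05 and 1 did not overlap. Their log2 differences ran from -0.61 to 2.12 with a median of 1.22, and the median of all 8 was 0.54. Ighm, the IgM heavy chain, and Cd22 lay at the upper end, at 2.11 ± 0.77 and 2.12 ± 0.66. The list scores overlapped, with WT replicate 2 above HET replicates 1 and 2. In all these bulk samples, more cells of a type and more RNA per cell cannot be told apart.

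**Figure D4:**
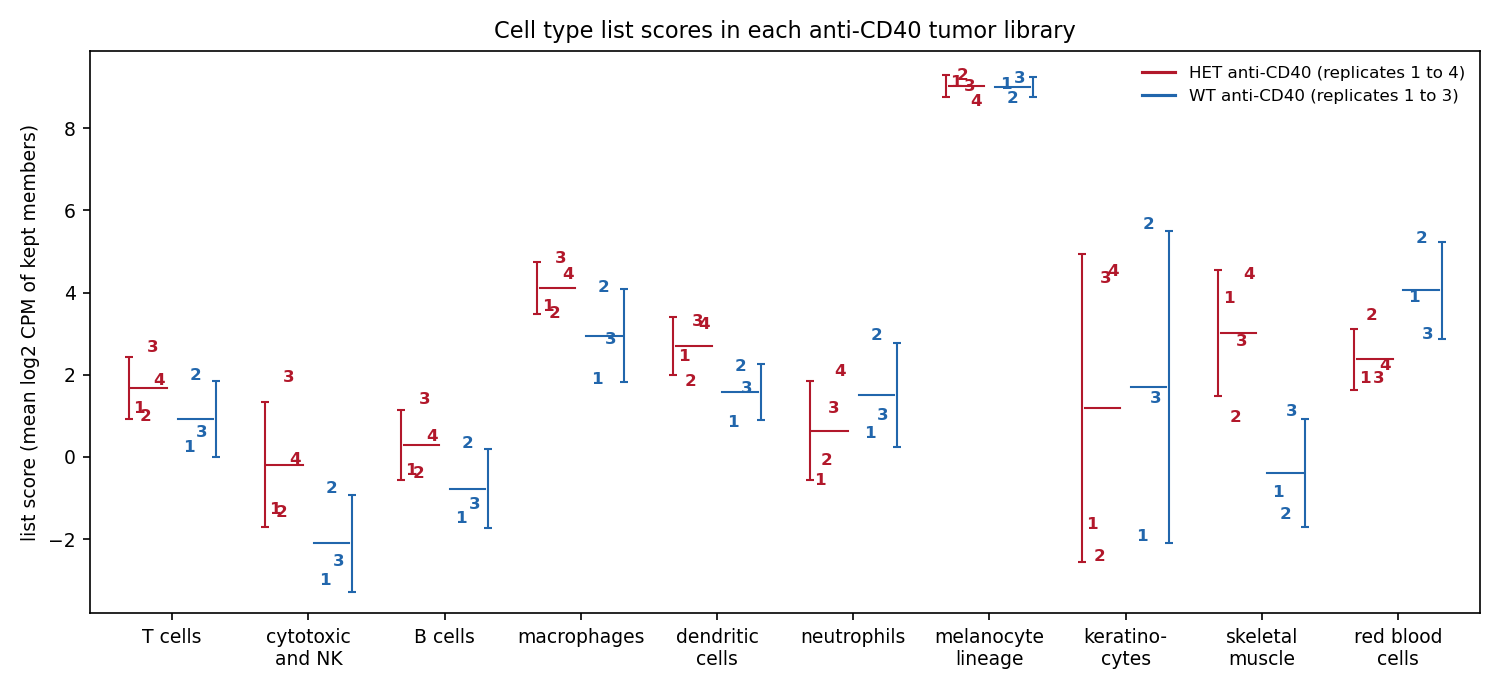
Scores of 10 cell type lists, the mean log2 CPM of the kept members, are plotted for each library by its replicate number, HET in red left of WT in blue, with the group mean as a line and the SD as a bar. Melanocyte scores coincide at 9.02 in HET tumors and 9.01 in WT tumors, keratinocyte scores scatter in both genotypes, and muscle scores are higher in 3 of 4 HET tumors than in any WT tumor.

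For the antibody's own target and for the checkpoint genes Cd274 and Pdcd1 the groups overlapped. Of 15 genes found for checkpoints and suppressive enzymes, 9 passed the filter. Of these 9, 7 stood higher in HET tumors, with a median log2 difference of 0.59. Before the filter 13 of the 15 stood higher. Among these 9 genes, 1 stood higher without overlap and none had an unadjusted p under 0.05. Cd40 averaged 2.07 ± 1.34 CPM in HET tumors and 0.701 ± 0.450 CPM in WT tumors (SD, n = 4 and 3). The log2 difference was 1.37, with an exact permutation p of 0.229 and an unadjusted p of 0.0244 in limma. The 18 genes of the CD40 and NF-κB pathway had a median log2 difference of 0.11, and 2 (11.1%) had an unadjusted p under 0.05. Their smallest adjusted p in limma was 0.988. Cd274, which encodes PD-L1 and answers to IFN-γ, stood at 21.7, 40.7, 52.5 and 16.5 CPM in HET tumors, against 22.8, 11.1 and 29.6 CPM in WT tumors. The groups overlapped, with a difference of 0.59 and an exact permutation p of 0.4. Pdcd1, which encodes PD-1, had at most 2.24 CPM in a HET tumor and 1.05 CPM in a WT tumor, with a difference of 0.70 and an exact permutation p of 0.571. Il18bp, the secreted decoy of interleukin 18, an inducer of IFN-γ, had the smallest p of the lists on cytokines. It stood at 10.9, 9.39, 44.8 and 17.1 CPM in HET tumors, against 2.87, 4.02 and 3.59 CPM in WT tumors. Every HET tumor had more than every WT tumor, and the log2 difference was 2.25 ± 0.45 (limma, unadjusted p = 3.02e-05, adjusted p = 0.452). It was 1.78 without HET replicate 3 and 1.31 with L number as a covariate. Il18 itself differed by 0.11 ± 0.37, and Il12rb1, a receptor chain for interleukin 12, by 1.85 ± 0.58.

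Neutrophil chemokines stood on the other side. Cxcl2 stood at 0.265, 0.733, 0.882 and 0.477 CPM in HET replicates 1 to 4, against 4.08, 43.3 and 5.70 CPM in WT replicates 1 to 3. Every WT tumor was above every HET tumor, with a log2 difference of -4.02 ± 1.32 (limma, unadjusted p = 0.00512, adjusted p = 0.591). Cxcl3, a close relative chosen after its values were seen, stood at 0.0758, 0.147, 0.294 and 0.668 CPM in HET tumors, against 2.12, 14.2 and 1.99 CPM in WT tumors, a difference of -3.67 ± 1.14 without overlap. Of 10 neutrophil genes, 9 stood lower in HET tumors, with a median log2 difference of -0.94, and none had an unadjusted p under 0.05. S100a8, a calcium-binding protein of neutrophils that stressed keratinocytes also make, ran from 0.379 to 48.6 CPM in HET tumors and from 3.25 to 92.7 CPM in WT tumors, with a difference of -1.69 ± 1.30. The sign of the neutrophil median turned to 0.42 with L number as a covariate. The log2 difference of Cxcl2 was -1.64 under control IgG, -1.84 under anti-PD1 and -0.29 under the combination. The neutrophil median was -0.95 under IgG, -1.26 under anti-PD1 and 1.22 under the combination, where all 10 genes stood higher in HET tumors. The 19 inflammatory cytokines and chemokines had a median of -0.44 under anti-CD40, and of 0.51 under the combination, where 17 stood higher in HET tumors.

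Skeletal muscle genes made up most of the widest differences of all. The 12 genes with the widest positive difference, among those without overlap, with an unadjusted p under 0.05 and a mean log2 CPM above 1, were Myh4, Tnnt3, Tnnc2, Acta1, Tgtp1, Car3, Atp2a1, H2-Aa, Xirp2, Tnni2, Gbp4 and Ttn. Only Tgtp1, H2-Aa and Gbp4 among them belong to the interferon lists, and the others are genes of skeletal muscle, such as Atp2a1, a calcium pump, or, for Car3, an enzyme of muscle and fat. Myh4, the fast myosin heavy chain, stood at 52.1, 7.26, 26.3 and 98.0 CPM in HET tumors, against 0.0833, 0.0479 and 1.72 CPM in WT tumors. All HET tumors were higher, with a log2 difference of 6.56 ± 1.89 (limma, adjusted p = 0.511). Of 19 muscle genes 18 stood higher in HET tumors and 14 (73.7%) had an unadjusted p under 0.05, with a median log2 difference of 3.69.

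The widest negative differences by the same criteria belonged to Cxcl2, Clvs1, Mbp, Arnt2, Daam2, Dlk2, Pla2g3, Cdhr2, Car6, Rundc3a, Gm4335 and Coro2b. Apart from Cxcl2 they lay between -1.41 and -0.80. Mbp, a protein of the myelin sheath, stood at 140, 84.8, 101 and 129 CPM in HET tumors, against 186, 256 and 426 CPM in WT tumors. No HET tumor reached the WT range, and the log2 difference was -1.29 ± 0.32 (limma, unadjusted p = 0.000362, adjusted p = 0.452). Clvs1, a lipid-binding protein of vesicle traffic, differed by -1.41 ± 0.48 and Coro2b, an actin-binding coronin, by -0.80 ± 0.24. Programs of the tumor cells differed little in the median: the melanocyte lineage by 0.01, the cell cycle by -0.07 and hypoxia and glycolysis by -0.16. Proteins that bind AU-rich elements and control mRNA decay had a median of -0.03 over 10 genes.

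The same genotype comparison was made under the other treatments, and the 4 comparisons share no library. In none of the 4 did HET and WT libraries share an L number. Genotype and L number therefore cannot be told apart within any treatment. Under control IgG the 65 interferon genes had a median log2 difference of 0.11, and 1 had an unadjusted p under 0.05 with a higher value in HET tumors (1.54%, beside 0.833% of all genes). Under anti-PD1 the median was -0.28 and the count again 1 (1.54%, beside 0.933%). Under the combination, which contains anti-CD40, the median was 1.45 and 43 genes did (66.2%, beside 4.13% of all genes). No gene was called at an adjusted p under 0.05 in limma in any of these 3 comparisons. At an unadjusted p under 0.05 they gave 310 genes under IgG (2.07%), 321 under anti-PD1 (2.14%) and 834 under the combination (5.56%). The guanylate-binding protein score averaged 3.67 ± 1.21 in HET tumors and 1.04 ± 0.57 in WT tumors under anti-CD40 (SD, n = 4 and 3). Under the combination it averaged 3.67 ± 0.78 in HET tumors and 1.85 ± 0.13 in WT tumors (n = 4 and 3), and under IgG 1.34 ± 1.23 in HET tumors and 1.47 ± 0.76 in WT tumors (n = 4 and 5). The muscle score followed the same treatments, at 3.02 ± 1.53 in HET tumors and -0.39 ± 1.32 in WT tumors under anti-CD40, and 2.75 ± 0.81 in HET tumors and -0.42 ± 1.25 in WT tumors under the combination. Under IgG it was 0.25 ± 2.50 in HET tumors and -0.36 ± 1.35 in WT tumors. Tested directly, the genotype difference under anti-CD40 minus that under IgG gave 0 called genes of 15002 (0.0%) in limma and 334 at an unadjusted p under 0.05 (2.23%). Of the 65 interferon genes 36 (55.4%) had an unadjusted p under 0.05 for a greater HET minus WT difference under anti-CD40, beside 1.48% of all genes, with a median of 1.498. Il18bp was among the 5 genes with the smallest p in that direction, at 2.10 (unadjusted p = 0.00154, adjusted p = 1.0).

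**Figure D5:**
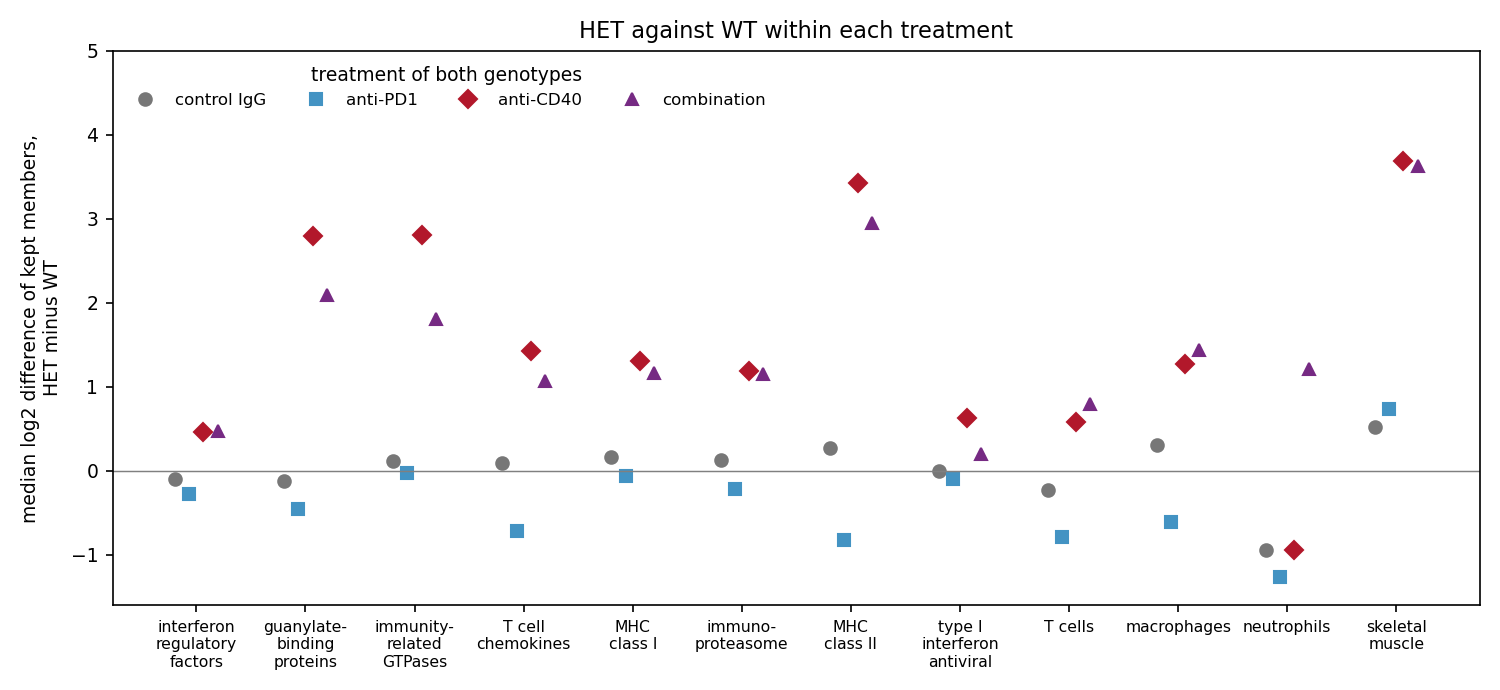
For each list the median log2 difference of its kept members, HET minus WT, is drawn for control IgG, anti-PD1, anti-CD40 and the combination, which share no libraries. In the MHC class II list the median is 3.43 under anti-CD40 and 2.94 under the combination, while it is 0.27 under IgG and -0.82 under anti-PD1. Skeletal muscle is likewise highest under anti-CD40, at 3.69, and the combination, at 3.63, with 0.53 under IgG and 0.74 under anti-PD1.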

How the data were processed

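RNA from 30 subcutaneous B16F10 tumors was sequenced, and the 7 anti-CD40 libraries are described. Per the submitters' processing notes, STAR (alignment), edgeR (normalisation) and the mm10 build were used, versions not given. The deposited values are log2 CPM made by the authors for 18975 genes. They could be taken back to whole reads within 0.01 reads for 100% of values (17.6 to 36.0 M per library, of which 1 read equals 0.0318 to 0.0479 CPM in these 7). Strandedness and the annotation release are not given in the sources used here, so overlapping genes cannot be told apart. Coordinates are 1-based, from GENCODE vM21 on mm10.

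The 15002 genes whose log2 CPM exceeded 0 in 3 or more libraries were kept. In R 4.3.3, limma 3.58.1 fitted 1 mean per group to the 30 libraries (moderated two-sided test with intensity trend, 22 residual degrees of freedom), and calls were made where the Benjamini-Hochberg adjusted p was under 0.05. The fit was also run on simulated data that held no outlying library, so that run does not cover a library such as HET replicate 3. List scores, exact permutation tests, intervals and figures used Python 3.11.15, numpy 2.4.6, scipy 1.17.1, pandas 2.3.3 and matplotlib 3.10.9. The 9 core genes, among them Ifng, Ifngr1, Ifngr2, Irf1, Cd8a, Pdcd1, Cd274 and Cd40, share 1 adjustment. In all, 3 genes of the lists are not reported here by name or drawn singly, though they count in list totals and scores. Alternatives were other filters, priors, scalings, voom, library weights, a replicate block, L number as a factor and tissue scores as covariates. Others left out libraries or fitted only the groups compared. Of all these, the single tissue scores and the removal of 3 libraries high in keratinocyte genes were chosen after seeing the data.

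Genes named are the core genes, the 12 leading genes each way, the 3 most abundant members of a list, any member of the interferon lists, and the 5 leading interaction genes each way, and the text says where one was chosen after its values were seen. The members and the 30 gene lists were chosen with earlier results of these data known, so lists were given no test. The replicate numbers do not pair the libraries: deviations of same-numbered HET and WT libraries correlated at 0.794, -0.785 and -0.011.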

Additional observations from a re-analysis of the deposited data

Results flagged for a closer look

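Cd8a in HET anti-CD40 replicate 3, at 2.10 log2 CPM, stood apart from the other 3 HET libraries, with a gap of 0.899 of the group's range. Chance flags about 1 in 20 groups of this size. The value comes from the library with the highest scores of all 7 interferon lists, and the Cd8a result was given with and without it.

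For Mbp the genotype difference under anti-CD40 was lower than that under control IgG by 1.57 on the log2 scale, an interaction of -1.57 (limma, unadjusted p = 0.000907, adjusted p = 1.0 over 15002 genes). Under IgG its difference was 0.28. All 4 HET anti-CD40 libraries lay below all 3 WT anti-CD40 libraries.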

How the results depend on the processing

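The count of called genes was 0 under every alternative fitted, for HET against WT under anti-CD40 and for its difference from IgG. At an unadjusted p under 0.05, where 575 genes passed, 201 did with L number as a covariate, 347 with library weights (whose estimation stopped before convergence), 267 without the 3 libraries of highest keratinocyte score and 322 with the muscle score alone. Leaving out 1 library at a time gave 320 (without HET replicate 3) to 912 (without WT replicate 2). Of these, 476 were higher in HET tumors, against 81 with L number as a covariate (40.3% of the genes passing), 294 with keratinocyte and muscle scores, 199 without the 3 libraries, 183 with muscle alone, and 251 (without HET replicate 3) to 618 (without WT replicate 2) with 1 library left out. The replicate block gave 526 genes and 0 calls, and the fit of the 7 anti-CD40 libraries alone gave 518 genes.

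Of 105 named genes, 85 kept their direction under every one of the 20 settings that gave a value, and 11 of the 105 had none under the stricter filter. Log2 differences that turned with L number as a covariate were -0.66 for Apoe, -0.061 for Calr, -0.027 for Ifngr1, -0.78 for Il18, 0.48 for Irf4, -0.26 for Irf7, -0.65 for Isg15, -0.028 for Lck, -0.33 for Rsad2, 0.65 for Tcf7 and -0.29 for Thy1. With keratinocyte and muscle scores they were -0.49 for Acta1, -0.32 for Cxcl10, -0.018 for Eif2ak2, -0.41 for Thy1, -0.21 for Tnnt3 and -1.25 for Xirp2. With the muscle score alone they were -0.34 for Acta1, -0.47 for Cxcl10, -0.054 for Ifngr1, -0.18 for Lck, -0.038 for Pdcd1, -0.71 for Thy1, -0.023 for Tnni2, -0.32 for Tnnt3 and -1.02 for Xirp2. Without the 3 libraries they were -0.0083 for Eif2ak2, -0.086 for Il18, -0.020 for Irf3, -0.31 for Isg15 and -0.37 for Rsad2, and with library weights 0.023 for Irf4. The cause of these turns was not tested, and those with L number as a covariate rest on HET IgG replicate 1, as stated above.

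With 1 library left out, differences that turned in at least 1 case ranged from -0.32 (without WT replicate 2) to 0.52 (without WT replicate 3) for Eif2ak2, -0.049 to 0.31 for Ifngr1, -0.045 to 0.099 for Ifngr2, -0.20 to 0.34 for Il18, -0.90 (without WT replicate 2) to 0.033 (without WT replicate 3) for Irf4, -0.15 to 0.53 for Lck, -0.019 (without WT replicate 2) to 0.83 for Rsad2, -0.19 to 0.078 for Tcf7 and -0.18 to 0.79 for Thy1. The stricter filter left no cytotoxic and NK gene and so gave no median for that list. Depth limits Ifng, at 0 to 31 reads per library, and the T and NK cell genes.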

Other observations

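Stromal lists differed unevenly. All 18 endothelial genes stood higher in HET anti-CD40 tumors, 2 of them at an unadjusted p under 0.05, with a median log2 difference of 0.47, and the score averaged 4.18 ± 0.24 in HET tumors and 3.69 ± 0.27 in WT tumors (SD, n = 4 and 3). One WT score, 3.91 in WT replicate 2, exceeded the lowest HET score, 3.88. Fibroblast and matrix genes stood higher in 21 of 23 cases, with a median of 0.25 and none at an unadjusted p under 0.05. Adipocyte genes had a median of 1.30, with scores of 2.20, 0.74, 2.84 and 3.60 in HET tumors, against -0.34, 2.15 and 0.61 in WT tumors.

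All 9 red blood cell genes stood lower in HET tumors, with a median log2 difference of -2.39 and none at an unadjusted p under 0.05. Their summed level was 221 to 353 CPM in HET tumors and 380 to 1307 CPM in WT tumors, so the sums did not overlap. The list scores did overlap, at 1.91 to 3.45 in HET tumors and 2.98 to 5.31 in WT tumors, and so did each of the 9 genes. The median turned to 1.37 with L number as a covariate and was -0.17 with the muscle score as a covariate.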
